A study of Homo sapiens with 6 samples.

Results

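The genes described here are those for the proteins of the cytosolic ribosome, the particle that translates nuclear-encoded mRNA in the cytoplasm. They were chosen by symbol alone: a row of the gene table was taken when one of its gene names was RPL or RPS with a number (and at most a letter A, X or L), RPLP0, RPLP1, RPLP2 or RPSA. This gave 81 rows of 54644, of which 32 belonged to the small subunit and 49 to the large subunit. The cells were SKBR3, an established HER2-amplified breast adenocarcinoma line. All 6 libraries came from SKBR3 cells that carried a lentivirus and had been selected with puromycin: 3 control libraries had the empty pLVX vector, and 3 CTTN libraries had pLVX with CTTN, the gene for the actin-binding protein cortactin. Each group was a stably infected population, so differences between the populations other than CTTN cannot be told apart from CTTN itself. The comparison asks what CTTN overexpression changed in these cells.

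Each ribosome has a small subunit, which reads the mRNA, and a large subunit, which joins the amino acids, and a cell has to make the protein parts of both in matched amounts. The mRNAs of these proteins are short and very abundant, and most begin with a C followed by a run of pyrimidines, the 5′ terminal oligopyrimidine (TOP) tract, through which mTOR signalling and the RNA-binding protein LARP1 control their translation. In tumour cells their output is known to follow growth signals, among them MYC and the kinases below HER2.

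The start of transcription of the genes the results turn on is shown here because the TOP tract is what the family shares at the sequence level. The windows are from RefSeq (GRCh38.p14), run 5′ to 3′ on the gene's strand, and hold 10 bases before the listed start and 20 bases from it. Capitals mark the pyrimidine run that begins at the start itself.
RPL35: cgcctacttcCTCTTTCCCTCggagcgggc
RPLP2: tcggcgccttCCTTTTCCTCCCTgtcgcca
RPS27: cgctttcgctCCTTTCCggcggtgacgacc
RPS23: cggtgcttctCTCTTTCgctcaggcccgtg
RPL36: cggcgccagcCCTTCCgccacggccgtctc
RPS6: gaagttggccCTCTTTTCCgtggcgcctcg
RPL22: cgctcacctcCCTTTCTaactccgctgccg
RPL4: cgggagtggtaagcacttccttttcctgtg
RPS27L: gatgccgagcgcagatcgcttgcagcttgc
RPL35, RPLP2, RPS27, RPS23 and RPL36 are the genes whose CTTN libraries cleared the controls by most when set against the rest of the family, RPL22 and RPL4 are among those that stood below them, RPS6 is the substrate of S6 kinase, and RPS27L is a paralogue. The window of RPL35 lies at chr9:124861938-124861967 on the minus strand, that of RPLP2 at chr11:809957-809986 on the plus strand, that of RPS27 at chr1:153990752-153990781 on the plus strand and that of RPL4 at chr15:66504836-66504865 on the minus strand. In RPL4 a pyrimidine run stands a few bases after the listed start and not at it, so it is not marked.

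A C followed by 4 bases that were each C or T, searched only at the listed starts and only on the gene's strand, was present for 46 of the 64 ribosomal protein genes with a RefSeq start in the table used (71.9%). The same letters stood at a listed start of 1404 of 27305 genes (5.1%). A match describes the letters at a listed start, and a gene without one may have its tract a few bases away, as RPL4 does. The median log2 fold change between CTTN and control cells was 0.39 over 46 genes with it and 0.37 over 17 tested genes without it.

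The libraries held 34887069 to 41279816 counts. CTTN itself was listed at 104, 108 and 108 FPKM in control 1 to 3 and at 263, 329 and 180 FPKM in CTTN 1 to 3, so every CTTN library stood above every control (log2 fold change 1.35 ± 0.22 (SE, n = 3 per group), edgeR quasi-likelihood adjusted p = 0.0248). The call was lost with limma on log2(FPKM + 1) (adjusted p = 0.0639), with a replicate block (edgeR adjusted p = 0.0588), without any 1 control (0.136 to 0.154) and without CTTN 1 (0.121), while the log2 fold change stayed at 1.22 or above in these fits. Of 9 luminal and HER2 markers, ERBB2 was at 1644 to 1790 FPKM and KRT8 at 1454 to 2509 FPKM, the adhesion gene CDH1 was below 1 FPKM, and the transcription factor gene TFAP2B was at 0.30 to 0.53 FPKM in controls and 0.87 to 1.05 FPKM in CTTN libraries, the one gene of that list that passed the test (log2 fold change 1.08, edgeR adjusted p = 0.026). Among markers of other cells, COL1A1 was at 2.83 to 4.26 FPKM, PTPRC, CD3E, PECAM1, DCN and LUM were all below 0.2 FPKM, and CD68 could not be read, since its row is merged with the abundant translation factor gene EIF4A1. The one marker of other cells that passed the test was CDH5, an endothelial cadherin, at 3.96 to 4.45 FPKM in controls and 1.43 to 2.02 FPKM in CTTN libraries (log2 fold change -1.49, edgeR adjusted p = 0.00843). The first principal component of all genes held 67.4% of the variance and put CTTN 2 at -6.5, the controls at -20.5 to -28.3, CTTN 1 at 23.9 and CTTN 3 at 58.2. On the second component (15.8%) CTTN 2 was the farthest from the controls, at -29.2 against 5.2 to 13.5. The 3 CTTN libraries therefore did not form 1 tight group, and the ribosomal protein genes are given library by library.

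Ribosomal protein mRNA made up 22.8%, 22.3% and 21.6% of all FPKM in control 1 to 3, and 24.6%, 21.6% and 27.8% in CTTN 1 to 3. CTTN 1 and CTTN 3 stood above all controls and CTTN 2 stood level with the lowest control. The group means were 22.2% ± 0.58 and 24.7% ± 3.07 (SD, n = 3 each), so the difference of 2.46 percentage points was smaller than the spread among the CTTN libraries. By share of counts, which gives short genes less weight, the values were 8.07% ± 0.37 in controls and 9.98% ± 2.30 in CTTN libraries (SD, n = 3 each). By subunit, the small subunit had 8.60% ± 0.24 of FPKM in controls and 9.58% ± 1.34 in CTTN libraries, and the large subunit had 13.6% ± 0.33 and 15.1% ± 1.73 (SD, n = 3 each), again differences smaller than the spread among the CTTN libraries. CTTN 2 had the lowest small subunit share of all 6 libraries (8.28%). In bulk RNA a change in the cells that make a transcript and a change in RNA per cell cannot be told apart.

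The level of the individual genes was narrow, with a few exceptions. Over the 77 ribosomal protein genes other than the paralogues RPL3L, RPL10L, RPL39L and RPS27L, the median of the mean control FPKM, a level per length, was 1252, and 66 of 77 lay within 2-fold of it. The small subunit genes had a median of 1538 FPKM (31 genes) and the large subunit genes 1133 FPKM (46 genes). The highest was RPL19, a large subunit protein, at 21720, 20980 and 19880 FPKM in control 1 to 3 and at 26570, 20010 and 34070 FPKM in CTTN 1 to 3, which is 16.7 times the median of the family in controls. The row of RPL19 lies on chromosome 17 and starts 471 kb before that of ERBB2, the gene amplified in this line. RPL23, whose row starts at -352 kb from that of RPL19, was at 760, 698 and 683 FPKM in controls, below the family median. The next levels were RPL7 (6314 ± 334 FPKM), RPS24 (3700 ± 144), RPS27 (3537 ± 153) and RPS2 (3190 ± 114; SD, n = 3 control libraries each). RPS24 was above RPS27 in every control library, but in the CTTN libraries RPS27 (5086, 3756 and 7190 FPKM) was above RPS24 (4463, 3386 and 5777 FPKM).

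**Figure D1:**
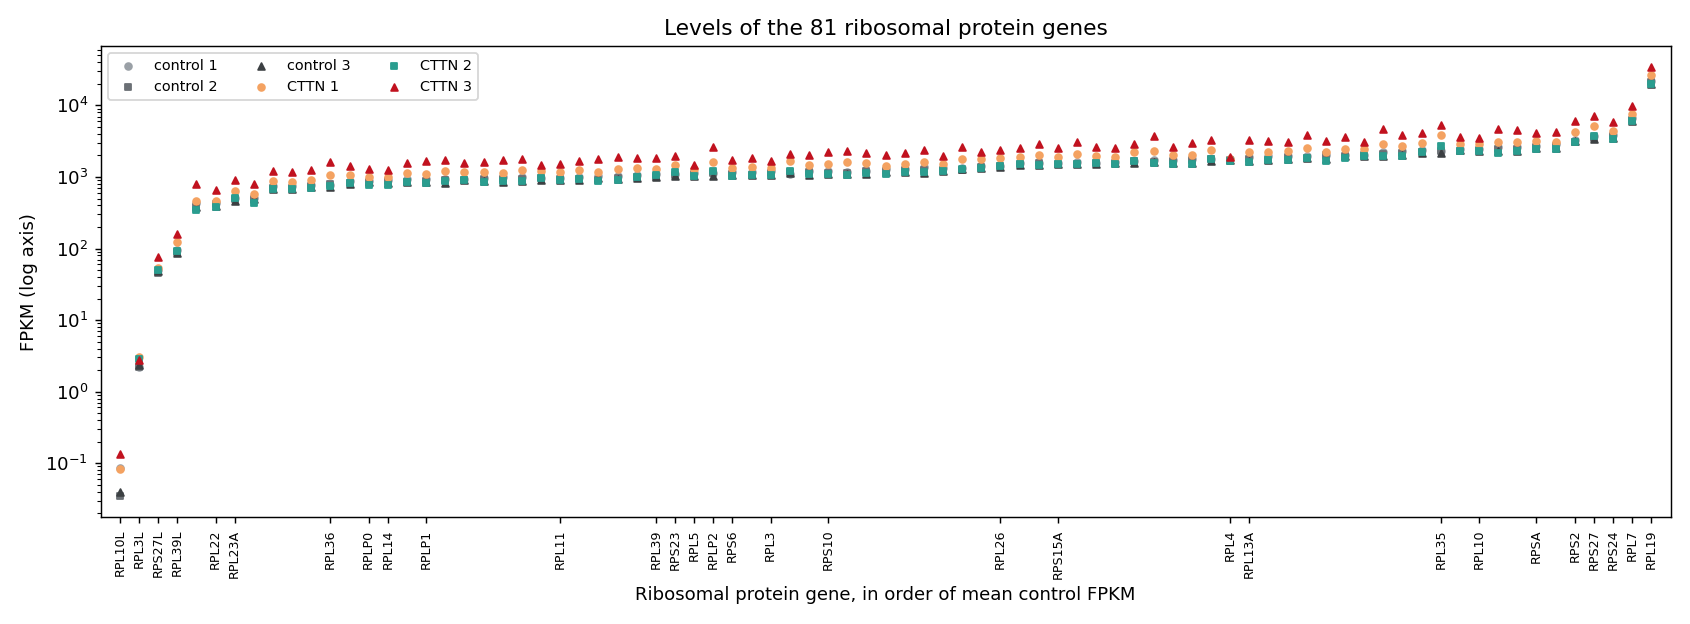
FPKM (log axis) of the 81 ribosomal protein genes in each library, in order of mean control FPKM, with some of them named on the axis; grey symbols are control libraries and coloured symbols CTTN libraries. RPL19 stands apart at the top at 16.7 times the median, and RPL10L, RPL3L, RPS27L and RPL39L lie at the bottom.

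The paralogues were much lower than the genes they resemble. RPL10L, a retrogene of RPL10 best known from testis, was at 0.085, 0.035 and 0.039 FPKM in controls and at 0.084, 0 and 0.13 FPKM in CTTN libraries, too low to test, while RPL10 was at 2409 ± 73.7 FPKM in controls (SD, n = 3). RPL3L, the striated-muscle form of RPL3, was at 2.25 ± 0.081 FPKM and RPL3 at 1062 to 1197 FPKM in the controls. RPS27L was at 48.2 ± 2.61 FPKM against 3537 for RPS27, and RPL39L was at 90.8 ± 5.32 FPKM against 997 to 1091 for RPL39. Of all 81 genes, 79 were above 10 FPKM in every library.

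No ribosomal protein gene passed the test between CTTN and control cells in either direction (0 of 80 tested at an edgeR adjusted p under 0.05). The background in the same test was 4.46% of 14409 genes, or 643 genes, and 2.43% for genes higher in CTTN cells. At an unadjusted p under 0.05 there were 7 ribosomal protein genes, against 30.2% of all genes tested. DESeq2 called 3 of the 80 higher (RPL35, RPLP2 and RPL3L), with a background of 7.23% in either direction and 3.71% for higher genes. With no filter on low counts edgeR called 1 (RPL35), with a background of 3.78% and 2.09%. On log2(FPKM + 1) limma called 0, but over all genes it called only 59 higher and 41 lower. That 0 therefore says nothing of the family. All 80 had a fitted log2 fold change above 0, against 50.9% of all genes. Among other genes of like length, described below, the share was 73.8%, and it was 97.1% among those of like length and level. The median of the family was 0.38 (0.15 for RPL4 to 0.80 for RPL35), while the median of all genes was 0.01. The standard errors were wide, with a median of 0.21 on the log2 scale against 0.15 for all genes, and adjusted p ran from 0.071 to 0.454.

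The width came from the CTTN libraries, which held the ribosomal protein genes at 3 different levels. Measured as log2 CPM minus the control mean, the median over 80 genes was 0.07, 0.00 and -0.07 in control 1 to 3. It was 0.31 in CTTN 1, -0.07 in CTTN 2 and 0.79 in CTTN 3. Every one of the 80 genes lay above the control mean in CTTN 1 and in CTTN 3, but only 13 did in CTTN 2. In 79 of 80 the order was CTTN 3 above CTTN 1 above every control, and the exception was the paralogue RPL3L. In CTTN 2, 41 genes were below the lowest control, 33 within the range of the controls and 6 above the highest control. The SD over the 80 genes was 0.09, 0.10 and 0.16 in CTTN 1 to 3 and 0.03, 0.04 and 0.04 in control 1 to 3.

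**Figure D2:**
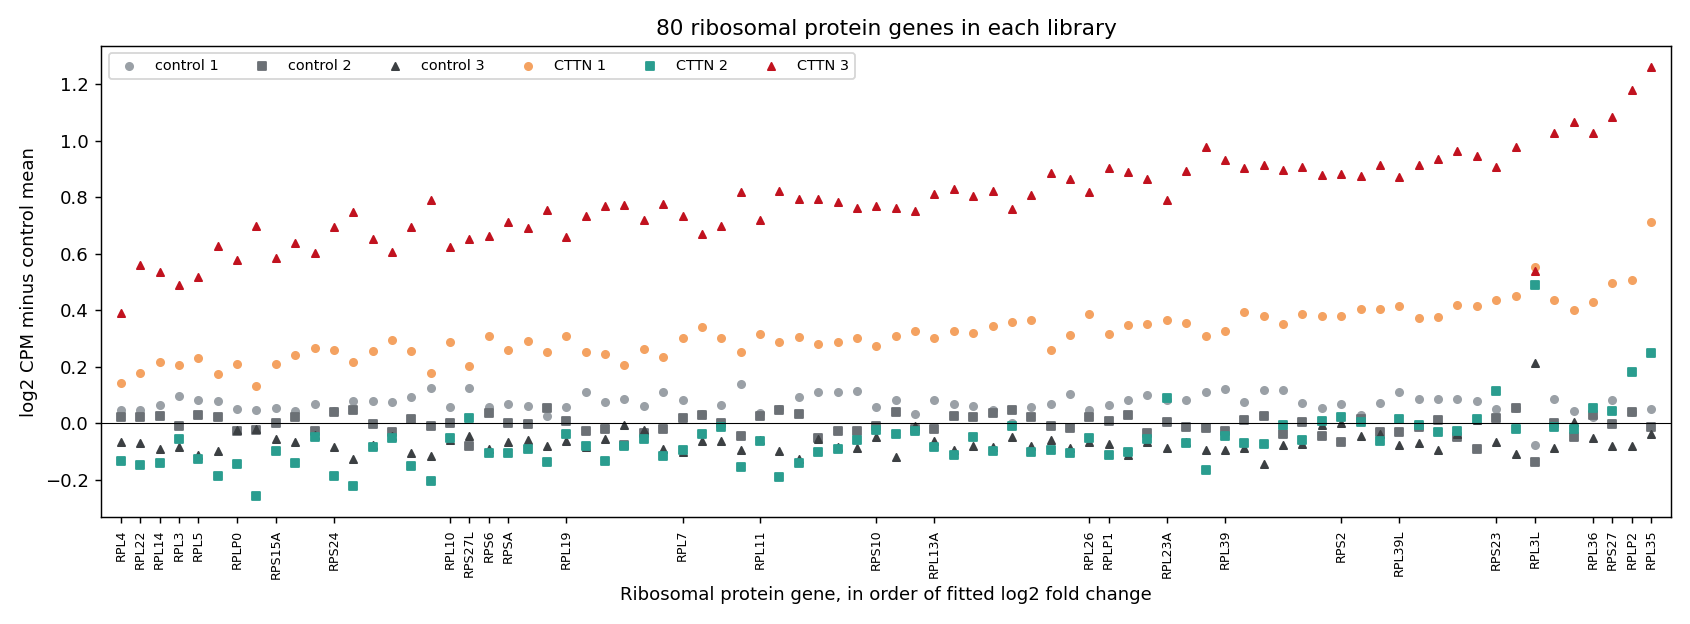
log2 CPM minus the control mean of 80 ribosomal protein genes in each of the 6 libraries, in order of fitted log2 fold change, with some of them named on the axis. CTTN 3 (red) forms the upper band at a median of 0.79, CTTN 1 (orange) a band at 0.31, and CTTN 2 (green) overlaps the controls (grey) at -0.07.

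The call rests on which CTTN libraries enter. Without CTTN 2, all 80 genes were called higher in CTTN cells, with a median log2 fold change of 0.55 and edgeR adjusted p from 0.00177 to 0.0463; in that fit 22.9% of all genes were also called higher and 47.1% were called in either direction. Without CTTN 3, 1 gene was called higher (RPL35), the median was 0.13, RPS26 and RPL37A had values just below 0 (-0.048 and -0.004), and 4.56% of all genes were called higher and 8.55% in either direction. Without CTTN 1, edgeR called 0 of the 80 and the median was 0.41, but in that fit it called only 0.136% of all genes higher and 0.218% in either direction, so the count says nothing of the family. At the 1.5-fold limit RPL35, RPLP2 and RPS27 reached the fold in the fit of all libraries and none of them passed the adjusted p, against a background of 3.32% of genes that met both.

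The order of the CTTN libraries by ribosomal protein genes was the reverse of their order by CTTN. CTTN 2 had the highest CTTN level (329 FPKM) and the lowest ribosomal protein genes of the 3, and CTTN 3 had the lowest CTTN level (180 FPKM) and the highest ribosomal protein genes. With 3 libraries this is a description and was not tested.

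Ribosomal protein mRNAs are short, so they were set beside other genes of like length. Listed transcript length ran from 296 to 2182 bases in the family, with a median of 652, and 66 of 80 tested genes were under 1000 bases. The 2682 other genes between 426 and 1199 bases (the 10th and 90th percentiles of the family) had medians of 0.24, 0.02 and 0.55 in CTTN 1 to 3, and a median log2 fold change of 0.27. Shorter genes in general were thus higher in CTTN 1 and CTTN 3 and near 0 in CTTN 2, in the same order of libraries as the ribosomal protein genes. With length read from the counts per FPKM in place of the listed length, the 2042 genes of like length had medians of 0.31, 0.03 and 0.69 in CTTN 1 to 3 and a median log2 fold change of 0.35, closer to the family.

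Among genes outside the family the difference in CTTN 1 and CTTN 3 fell with length above 1500 bases. Up to that length it did not fall steadily, and for 1000 to 1500 bases the median was 0.24 in CTTN 1 and 0.51 in CTTN 3. In CTTN 3 the median difference was 0.53 for genes of up to 500 bases, 0.56 for 500 to 1000 bases, 0.09 for 2000 to 3000 bases and -0.76 for genes over 6000 bases. In CTTN 1 the same classes had 0.19, 0.23, 0.07 and -0.41. In CTTN 2 they had 0.01, 0.02, 0.01 and -0.01, near 0 in each class. CTTN, at 3272 bases, lies in the class of 3000 to 4000 bases, where the medians were -0.08, -0.01 and -0.18 in CTTN 1 to 3.

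**Figure D3:**
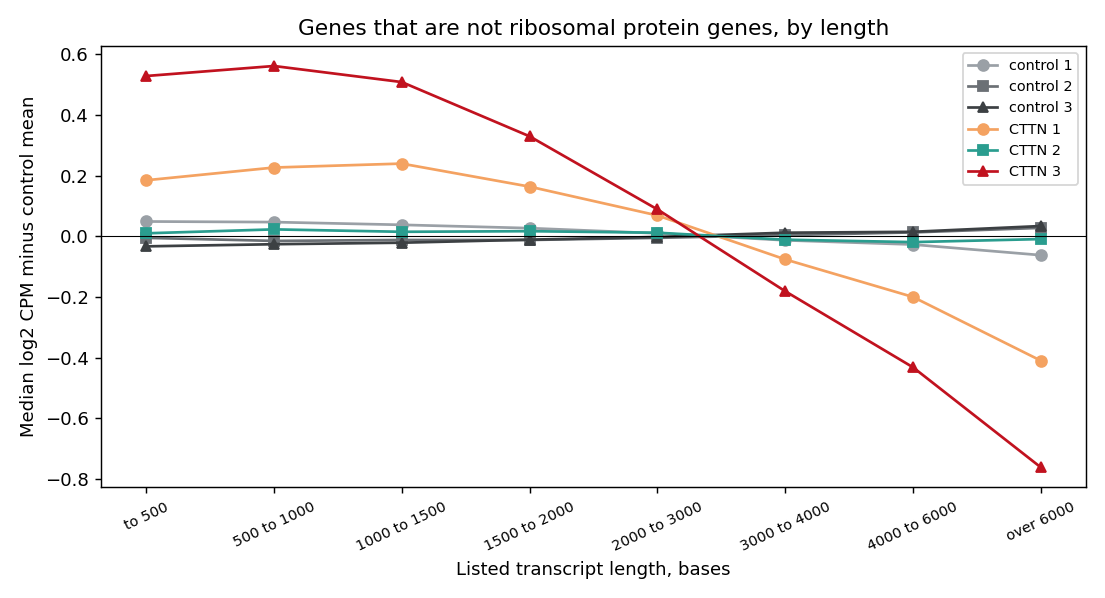
Median log2 CPM minus the control mean of genes outside the family, by listed transcript length in bases; each line is a library. CTTN 3 falls from 0.53 to -0.76 and CTTN 1 from 0.19 to -0.41 between the shortest and the longest class, while CTTN 2 and the controls stay within 0.1 of 0.

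Genes matched on both length and level came closest to the family. The 35 other genes within the length window and within the family's 10th to 90th percentile of mean log2 CPM (8.68 to 10.73) had medians of 0.31, -0.01 and 0.76 in CTTN 1 to 3, beside 0.31, -0.07 and 0.79 for the ribosomal protein genes. Their median log2 fold change was 0.40, and 0 of 35 were called by edgeR. This set holds FAU, whose product includes a ribosomal protein but whose name lies outside the rule, and abundant short mRNAs such as FTH1 (ferritin heavy chain), TMSB10 (a thymosin) and COX4I1 (a subunit of cytochrome c oxidase). The 239 genes of like level at any length had medians of only 0.08, -0.02 and 0.18. Thus the level reached by the ribosomal protein genes in each library was also reached by other genes of their length and abundance.

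A fit that took each library's trend with length into account, chosen after seeing the data, lowered the median log2 fold change of the family from 0.38 to 0.17. In it 78 of 80 genes stayed above 0 and 1 was called higher, RPL35 (log2 fold change 0.62, edgeR adjusted p = 0.0342, with 7.52% of all genes called higher and 14.1% in either direction). RPL4 and RPL5 had values just below 0 in that fit (-0.06 and -0.01). How far RNA quality, library preparation or biology contributed to the length trend was not tested.

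RPL35, a large subunit protein at the exit of the peptide tunnel, had the largest fitted fold change of the family. It was at 2282, 2281 and 2199 FPKM in control 1 to 3 and at 3842, 2722 and 5405 FPKM in CTTN 1 to 3. All 3 CTTN libraries lay above all controls, CTTN 2 included. Its log2 fold change was 0.80 ± 0.23 (SE, n = 3 per group) with an edgeR adjusted p of 0.091, which missed the threshold. It passed with DESeq2 (adjusted p = 0.011) and with no filter on low counts (edgeR adjusted p = 0.0319). It also passed in the edgeR fits without CTTN 2 (adjusted p = 0.00177) and without CTTN 3 (0.0399). RPL35 missed the threshold without CTTN 1 (edgeR adjusted p = 0.239), with limma and with a replicate block. All 80 tested genes of the family passed without CTTN 2, so that fit does not set RPL35 apart. The row (chr9:124853417-124861981, GRCh38) names no other gene, and 99.3% of its FPKM was in 1 isoform.

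RPLP2, one of the acidic stalk proteins that recruit elongation factors, came next. It was at 1128, 1140 and 1025 FPKM in controls and at 1612, 1201 and 2627 FPKM in CTTN 1 to 3, again with no overlap between the groups. Its log2 fold change was 0.68 ± 0.24 (SE, n = 3 per group; edgeR adjusted p = 0.123, DESeq2 adjusted p = 0.038). The other stalk genes did not share its place: RPLP1 was at 0.43 ± 0.23 and RPLP0, the base of the stalk, at 0.24 ± 0.17 on the log2 scale.

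Groups without overlap in log2 CPM, with every CTTN library above every control, occurred for 6 of 80 genes (7.5%), against 19.4% of all genes tested. Besides RPL35 and RPLP2 these were RPS23, RPL3L, RPL36 and RPL23A, and for RPL36 and RPL23A the FPKM values of CTTN 2 lay within those of the controls. RPS23, a small subunit protein at the decoding centre, was at 1094, 1068 and 1029 FPKM in controls and at 1478, 1188 and 1967 FPKM in CTTN libraries. RPL3L was at 2.18, 2.22 and 2.34 FPKM in controls and at 3.05, 2.88 and 2.77 FPKM in CTTN libraries, with a log2 fold change of 0.53 ± 0.13 (SE, n = 3 per group; edgeR adjusted p = 0.071, DESeq2 adjusted p = 0.0397). Its 3 CTTN libraries lay close together, and its level was a small fraction of that of RPL3.

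With the median ribosomal protein gene of each library taken as 0, the genes that left the common level could be seen apart from the shift common to the family. The trend with length in CTTN 1 and CTTN 3 is not removed on this scale. On this relative log2 scale RPL35 was at -0.02, -0.01 and 0.03 in controls and at 0.40, 0.31 and 0.47 in CTTN 1 to 3. RPLP2 was at 0.20, 0.25 and 0.39 in the CTTN libraries, and RPS27, a zinc-finger protein of the small subunit, at 0.19, 0.11 and 0.29. At the other end RPL4, a large subunit protein that lines the peptide tunnel, was at -0.17, -0.07 and -0.40. These are descriptions, and no test of one member against the others was made. The genes named on this scale were chosen after their values were seen.

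**Figure D4:**
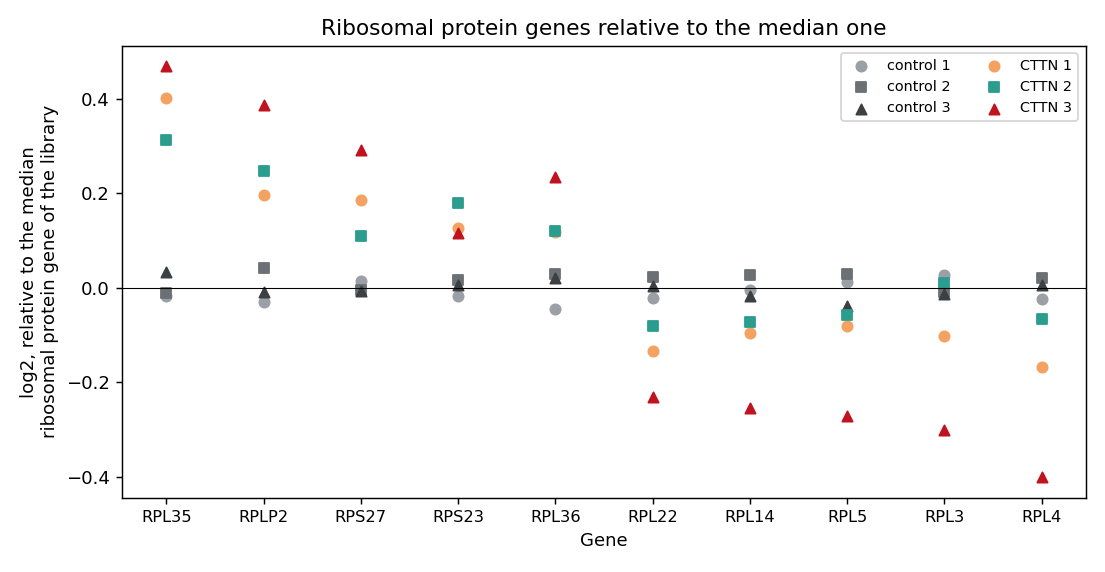
log2 level relative to the median ribosomal protein gene of the same library, for 5 genes above the common level and 5 mostly below it. Each symbol is a library. RPL3, among the lower 5, was at 0.01 in CTTN 2, within the range of its controls. RPL35 lies at 0.31 to 0.47 in the CTTN libraries and within 0.04 of 0 in the controls, and RPL4 at -0.07 to -0.40 in the CTTN libraries.

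Fold changes were only loosely related to length within the family. RPL4 (1396 bases) had a log2 fold change of 0.15 ± 0.14, RPL22 (2078 bases) 0.22 ± 0.17 and RPL14 (794 bases) 0.23 ± 0.17, the 3 smallest values, whereas RPS27 (359 bases) had 0.60 ± 0.24 and RPL35 (455 bases) 0.80 ± 0.23 (SE, n = 3 per group). Long genes with larger values were RPL3L (2182 bases, 0.53 ± 0.13) and RPL23A (1562 bases, 0.44 ± 0.17). Pearson's r between log2 length and log2 fold change was -0.34 across the 80 genes, which share libraries and are not independent replicates. RPL22, an RNA-binding large subunit protein, was at 435, 416 and 395 FPKM in controls and at 461, 379 and 668 FPKM in CTTN 1 to 3.

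Members with roles outside translation also had values above 0. RPL5 and RPL11, which with 5S RNA can bind and hold back MDM2, had log2 fold changes of 0.23 ± 0.16 and 0.36 ± 0.18. RPS6, the target of S6 kinase, was at 1173, 1100 and 1054 FPKM in controls and at 1337, 1027 and 1709 FPKM in CTTN 1 to 3, with CTTN 2 below every control. RPSA, which has also been described as a laminin receptor, was at 0.33 ± 0.19 on the log2 scale (SE, n = 3 per group; edgeR adjusted p from 0.217 to 0.334 for these 4 genes). Relative to the family's median, RPL5 was at -0.08, -0.06 and -0.27 and RPSA at -0.05, -0.04 and -0.08 in CTTN 1 to 3, below all of their control values. RPL11 and RPS6 overlapped their controls on this scale. Of the 80 genes, 15 had every CTTN library below every control and 13 had every CTTN library above. Standing below the controls therefore does not set RPL5 and RPSA apart.

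Part of the counts cannot be assigned to a ribosomal protein gene with certainty. In 9 rows the name of another protein-coding gene is merged with the member, among them RPL13A, RPL26, RPL36, RPS10 and RPS15A. Their log2 fold changes ran from 0.26 (RPS15A, merged with ARL6IP1) to 0.56 (RPL36, merged with HSD11B1L), inside the range of the other members. Without these rows the family held 20.4% ± 0.52 of FPKM in controls and 22.6% ± 2.77 in CTTN libraries (SD, n = 3 each). Near-identical processed pseudogenes are the other source of doubt. The 1146 rows named for ribosomal protein pseudogenes held counts equal to 1.40% to 1.99% of the members' counts, and of 94 that could be tested edgeR called 0.

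The other genes of ribosome supply were read from lists chosen for their role. None of their members passed the edgeR test: 0 of 78 mitochondrial ribosomal protein genes, 0 of 44 ribosome biogenesis genes, 0 of 22 translation genes with TOP mRNAs, 0 of 22 regulators, 0 of 17 chaperones and importers, and 0 of 8 genes of ribosome components, paralogues and like-named genes outside the naming rule. RPS19BP1, which encodes a protein that binds RPS19 and is not itself a ribosomal protein, is counted in both of the last lists. NAP1L1, NACA and BTF3 are counted both among the translation genes with TOP mRNAs and among the chaperones and importers. At an unadjusted p under 0.05 the counts were 29, 11, 3, 5, 3 and 3, against 30.2% of all genes, and DESeq2 called 13, 2, 2, 2, 2 and 1, against 7.23% of all genes, in the same order. The mitochondrial ribosomal protein genes, which serve a separate ribosome and have a median length of 1124 bases, lay above 0 in 77 of 78, against 50.9% of all genes, and had a median log2 fold change of 0.34, the exception being MRPL42 at -0.09. In CTTN 1 to 3 their medians were 0.31, 0.02 and 0.64.

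The translation genes with TOP mRNAs, which share the tract but are longer (median 1593 bases), had a median log2 fold change of 0.12 and medians of 0.12, -0.08 and 0.30 in CTTN 1 to 3. EIF3K (864 bases), a subunit of initiation factor eIF3, had a log2 fold change of 0.45 ± 0.19, EEF1B2 (880 bases), a part of the exchange factor for eEF1A, 0.14 ± 0.17, and EEF2 (3164 bases), the translocation factor, -0.10 ± 0.11 (SE, n = 3 per group). The biogenesis genes had a median of 0.10. Among the regulators, with a median length of 3621 bases and a median log2 fold change of -0.16, MYC was at 133 to 141 FPKM in controls and 133 to 142 FPKM in CTTN libraries, and LARP1 was at 72.7, 83.2 and 83.2 FPKM in controls and at 55.5, 76.7 and 41.2 FPKM in CTTN 1 to 3. These genes were named for their role, after their values were known.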

How the data were processed

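RNA-seq was made from polyadenylated RNA of 3 control and 3 CTTN libraries of SKBR3 cells with a stranded kit. Per the labels' processing notes the authors used bcl2fastq 2.20.0, Trimmomatic, STAR and Cufflinks on GRCh38, whereas the study's methods name another trimmer and hg19; row positions matched GRCh38. The deposited gene table holds estimated counts divided by a library scale, and multiplying by it returned whole numbers (100% of values above 0, tolerance 0.01). The deposited FPKM values, from Cufflinks, are per length and library size. Control columns are named q4_0 to q6_0 in the tables and q5_0 to q7_0 in the labels, so columns were given to groups only, and replicate numbers follow the deposited sample table. All columns were used.

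Recovered counts (14409 genes after filtering on low counts) were fitted with edgeR 4.0.16 (TMM, quasi-likelihood, Benjamini-Hochberg), without a block; DESeq2 1.42.0 and limma 3.58.1 (log2(FPKM + 1) or + 0.1) were alternatives. The length trend was a loess of span 0.3 over other genes, per library. The procedure was tested on simulated data. Named genes were those with the highest and lowest levels and fold changes, paralogues and partners, the stalk, RPSA, RPL5, RPL11, RPS6 and merged rows; others are marked in the text. The members and lists were chosen with earlier results of these data known. p-values measure the spread between these libraries. Some items are not reported here.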

Additional observations from a re-analysis of the deposited data

How the results depend on the processing

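Across all genes, 350 were called higher and 293 lower. The counts of higher and lower genes were 539 and 437 with no filter, 959 and 908 with DESeq2, 59 and 41 with limma on log2(FPKM + 1), 71 and 47 with a pseudocount of 0.1, and 1084 and 945 with length trend offsets; leaving out 1 replicate gave 10 to 3366 higher and 5 to 3559 lower. Genes past the 1.5-fold limit, 479 in the fit of all libraries, numbered 774 with no filter, 1008 with DESeq2, 93 and 114 with limma, and 15 to 3110 with 1 replicate left out. Ribosomal protein genes called higher, 0 in that fit, numbered 1 with no filter, 3 with DESeq2, 1 with length trend offsets and 0 to 80 with 1 replicate left out; past the 1.5-fold limit they numbered 1, 2, 1 and 0 to 34. Mitochondrial ribosomal protein genes called higher numbered 1 with library totals, 9 with no filter, 13 with DESeq2, 7 with length trend offsets and 0 to 63 with 1 replicate left out. The log2 fold change of CTTN was 1.22 and 1.23 with limma, where it missed the threshold, and 1.10 to 1.57 with 1 replicate left out, missing it without any control or CTTN 1. RPL4 and RPL5 turned to -0.059 and -0.012 with length trend offsets. Without CTTN 3, 78 of the 80 ribosomal protein genes were above 0, RPS26 (-0.048) and RPL37A (-0.004) being the others. The causes were not tested.

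The replicate numbers did not pair the samples (correlations of same-numbered libraries 0.02, 0.08 and -0.19). With a replicate block 51 genes were higher and 54 lower, 105 passed the 1.5-fold limit, 0 ribosomal protein genes were called, and CTTN missed the threshold at 1.30.

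The family's median log2 fold change stayed above 0 in all alternatives run (0.13 to 0.55), as did its difference in share of FPKM (0.92 to 3.98 percentage points). Of the 81 genes, 79 were above 10 FPKM in every library, and RPL10L was too low to test.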
